A study of Mus musculus with 2 samples.

Results

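Chylomicrons are the large triglyceride-rich particles in which the small intestine exports dietary fat. 10 genes of their parts and assembly were examined here among the 45706 gene IDs of the study. They are the apolipoprotein genes Apoa1, Apoa4, Apob, Apoc2 and Apoc3, the triglyceride synthesis genes Mogat2, Dgat1 and Dgat2, and the assembly and export genes Mttp and Sar1b. The members were chosen by name, from their known roles but with earlier results of these data known, and all 10 were matched by symbol. The data are 2 RNA sequencing libraries of mouse intestinal stem cells, 1 from fasted mice and 1 from mice given standard chow ad libitum. Mice of both groups were 4 months old and carried the Lgr5-EGFP-IRES-creERT2 allele, a reporter in which the Lgr5 locus, active in crypt-base stem cells, drives green fluorescent protein. Cells with high fluorescence were sorted in both groups. The labels state neither how long the fast lasted nor how many mice gave each library.

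In enterocytes, absorbed monoacylglycerol and fatty acids are joined again into triglyceride in the endoplasmic reticulum. The microsomal triglyceride transfer protein loads this triglyceride onto a molecule of apolipoprotein B, which forms the backbone of the particle. Smaller apolipoproteins are added, and the particle leaves the endoplasmic reticulum in carriers built with the COPII coat, whose GTPase switch is a SAR1 protein. The pathway is best known from mature absorptive cells of the villus, which descend from the stem cells studied here.

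The stretches before the starts of 4 of the genes are shown, because Apoa1, Apoa4 and Apoc2 were higher in the fasted library and Apob, the backbone gene, was not. The RefSeq promoter table for GRCm38.p6 matched 6 of the 10 members. Of these, 5 had an unbroken stretch of at least 100 bases outside exons. Sar1b, whose longest such stretch has 146 bases, was neither higher nor lower and is not shown. In each window of 250 bases before the start, only the longest unbroken stretch outside exons of GENCODE protein-coding genes was used. It is printed in the direction of the gene. Capitals mark matches on either strand to 4 short motifs, whose letters were chosen after the sequences had been seen. The motifs are the TATA box TATAAA, the nuclear receptor half-site AGGTCA, the core CAAAGTNCA bound by HNF4 factors, and the half-site TGACG of the cyclic AMP response element. None of the 4 motifs overlaps another in these stretches.
Apoa1 (chr9:46228380-46228579, plus strand): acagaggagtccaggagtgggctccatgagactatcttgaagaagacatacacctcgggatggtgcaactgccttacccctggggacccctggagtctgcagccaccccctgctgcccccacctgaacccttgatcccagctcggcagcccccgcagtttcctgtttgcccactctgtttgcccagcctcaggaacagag
Apoa4 (chr9:46240594-46240695, plus strand): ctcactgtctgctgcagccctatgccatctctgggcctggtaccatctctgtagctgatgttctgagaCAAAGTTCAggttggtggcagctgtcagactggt
Apoc2 (chr7:19677942-19678082, minus strand): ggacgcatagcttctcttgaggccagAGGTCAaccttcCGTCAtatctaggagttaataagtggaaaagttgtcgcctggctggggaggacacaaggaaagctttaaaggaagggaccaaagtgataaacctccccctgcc
Apob (chr12:7977427-7977647, plus strand): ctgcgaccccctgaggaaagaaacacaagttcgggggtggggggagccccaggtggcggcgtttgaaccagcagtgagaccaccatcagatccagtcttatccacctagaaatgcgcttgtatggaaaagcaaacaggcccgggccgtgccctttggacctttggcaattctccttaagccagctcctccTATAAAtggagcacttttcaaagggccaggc
The Apoa4 stretch holds the HNF4 core, the Apoc2 stretch holds a nuclear receptor half-site and a half-site of the cyclic AMP response element, and the Apob stretch holds a TATA box. The letters of none of the 4 motifs are in the Apoa1 stretch, nor in that of Sar1b, which says nothing of binding there. The Apoa4 stretch ends 149 bases before the start, and its HNF4 core begins 182 bases before it. In the table's 32851 windows, 0.426% held the HNF4 core at the place of the Apoa4 stretch, from 250 to 149 bases before the start, and 1.19% held it anywhere in the 250 bases. At the place of the Apoc2 stretch, the last 141 bases, 8.05% held the nuclear receptor half-site and 12.8% the cyclic AMP half-site. At the place of the Apob stretch, from 250 to 30 bases before the start, 9.99% held the TATA box. A match is a description of the letters and not a binding site.

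The fasted library held 5020056 counts and the fed library 6985316. Ratios are fasted over fed after scaling by median-of-ratios factors, and levels are counts per 1000000 counts of the library (CPM). Each group had a single library, so no test or p-value could be given and no replicate check was possible, and the 95% intervals cover counting error only. Measured genes are those that averaged 1 CPM or more and had 20 or more counts in both libraries together. "Higher" and "lower" describe genes that differed by 2-fold or more with an interval that did not include equality. Of 12026 measured genes, 302 (2.51%) were higher and 230 (1.91%) were lower, the median log2 ratio was -0.018, and 47.9% had a positive one.

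All 10 genes were measured. Apoa1, Apoa4, Apoc2, Apoc3, Mogat2 and Mttp were higher in the fasted library, 6 of 10 against 2.51% of all measured genes, and 0 were lower. All 10 log2 ratios were positive, with a median of 1.03. Apob, Dgat1, Dgat2 and Sar1b were neither higher nor lower. Summed over the 10 genes, the fasted library had 8062 counts (1606 CPM) and the fed library 6931 counts (992 CPM), a log2 ratio of 0.72 (0.67 to 0.76). Mttp and Mogat2 lay just inside the 2-fold threshold, at log2 ratios of 1.05 and 1.01, and Dgat2 was nearest outside it, at 0.74. Mogat2 lost its call when libraries were scaled to total counts, at 0.99, and when ratios were corrected for exon length, at 0.87.

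**Figure D1:**
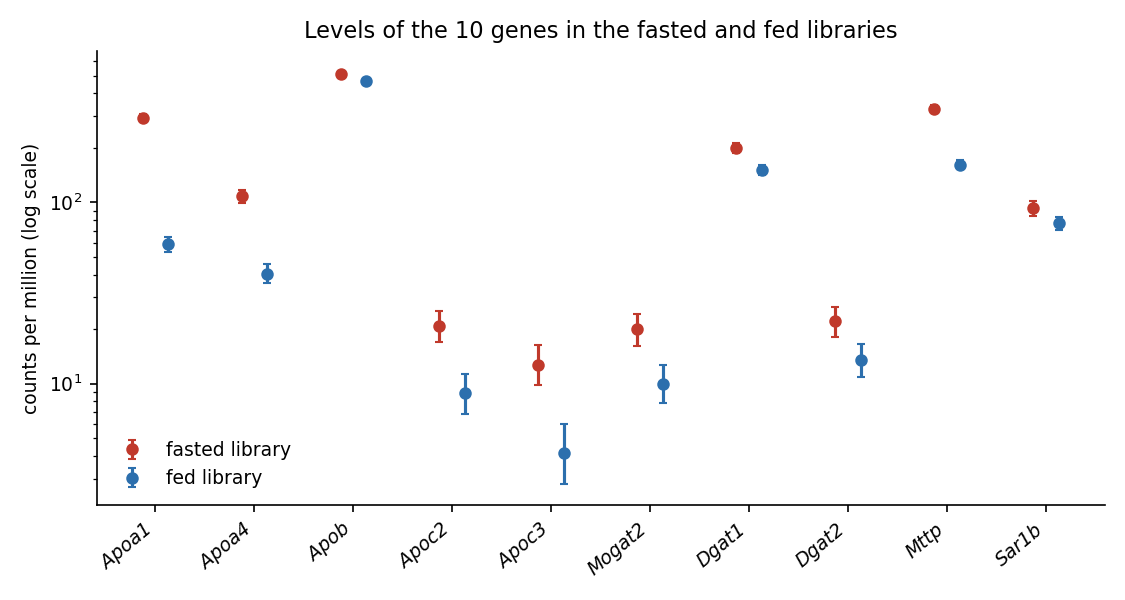
Levels of the 10 genes in CPM (log axis) in the fasted and fed libraries, with exact 95% Poisson intervals as bars. Every fasted point lies above the fed point of the same gene, by little for Apob (508 and 467 CPM) and by most for Apoa1 (291 and 58.7 CPM).

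The same libraries differed in markers of mature absorptive enterocytes. Of 20 such markers, none of them among the 10 genes, 11 were higher and 0 were lower. Their median log2 ratio was 1.02, and single ratios ran from -0.014 for Vil1 to 4.78 for Fabp1. Their summed level was 3193 CPM in the fasted and 1698 CPM in the fed library, a log2 ratio of 0.93 (0.90 to 0.97). Fabp1 weighs heavily in this sum, with 4047 of 16027 counts in the fasted and 208 of 11859 in the fed library. Goblet cell markers had 3 of 8 higher and 0 lower, and their median log2 ratio was 0.49. Their summed level was 1244 CPM in the fasted and 637 CPM in the fed library, a log2 ratio of 0.99 (0.93 to 1.04). None of 13 stem cell markers reached 2-fold (over all measured genes, 2.51% were higher and 1.91% lower), and their median log2 ratio was -0.29. Their summed level was 14759 CPM in the fasted and 22334 CPM in the fed library, a log2 ratio of -0.58 (-0.59 to -0.56). This sum is weighted to the markers with the most counts, and the single log2 ratios ran from -0.78 to 0.10. Lgr5 had 340 CPM in the fasted and 484 CPM in the fed library. The part of these markers in the ratios of the 10 genes was not tested. In such bulk libraries, more cells of a type and more RNA per cell cannot be told apart. Several apolipoprotein genes are also known from the liver, and of 12 hepatocyte markers 6 had 0 counts in both libraries, among them the albumin gene Alb. The measured hepatocyte markers were Ttr and Cps1, which had negative log2 ratios of -0.074 and -0.46. The summed level of the 12 markers was 4481 CPM in the fasted and 6260 CPM in the fed library. Nearly all of it was Cps1, with 22292 of 22493 counts in the fasted and 43437 of 43728 in the fed library.

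Among the apolipoproteins, Apoa1 had the highest ratio. It encodes the main protein of high density lipoprotein, which the intestine also places on chylomicrons. Apoa1 (chromosome 9, 46228580 to 46230466, GRCm38) had 1462 counts (291 CPM, 276 to 307) in the fasted library, against 410 counts (58.7 CPM, 53.2 to 64.7) in the fed library. The intervals are far apart, and the ratio was 5.04-fold, a log2 ratio of 2.33 (2.17 to 2.49). It ranked 41st from the top of all 12026 measured genes by ratio. Per kilobase of exon, its level stood at percentile 99.0 of measured genes in the fasted library and at percentile 92.2 in the fed library.

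Apoa4 encodes an apolipoprotein of chylomicrons that the intestine makes during fat absorption. It had 542 counts (108 CPM, 99.1 to 117) in the fasted library, against 283 counts (40.5 CPM, 35.9 to 45.5) in the fed library. The log2 ratio was 1.44 (1.23 to 1.65), a 2.70-fold higher level. Apoa4 overlaps the annotated antisense gene Gm10680 over 632 exon bases. That gene had 0 counts in both libraries, and how reads in the overlap were assigned was not analysed here.

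Apob encodes the backbone protein, of which each particle carries a single molecule. It had 2552 counts (508 CPM, 489 to 528) in the fasted library, against 3261 counts (467 CPM, 451 to 483) in the fed library. The log2 ratio was 0.14 (0.069 to 0.22), at percentile 70.2 of all measured genes. Apob had the most counts of the 10 genes in each library and the narrowest interval of the ratio.

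Apoc2 and Apoc3 act on lipoprotein lipase, the enzyme that unloads triglyceride from particles in the blood. Apoc2, the activator of the lipase, had 104 counts (20.7 CPM, 16.9 to 25.1) in the fasted library, against 62 counts (8.88 CPM, 6.81 to 11.4) in the fed library. The log2 ratio was 1.24 (0.78 to 1.72). Apoc3, which inhibits the lipase and the uptake of particle remnants, had 64 counts (12.7 CPM, 9.82 to 16.3) in the fasted library, against 29 counts (4.15 CPM, 2.78 to 5.96) in the fed library. The log2 ratio was 1.64 (0.99 to 2.33). The activator and the inhibitor were both higher, and Apoc2 reads per Apoc3 read differed between the libraries by a log2 value of -0.40 (-1.23 to 0.43). The GENCODE annotation places a further protein-coding gene, Gm44805, on the same strand over 646 of the 813 exon bases of Apoc2. Its ID is not among those of the count files, and how reads there were assigned was not analysed here.

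Of the triglyceride synthesis genes, Mogat2 was higher and the other two were not. Mogat2 encodes the monoacylglycerol acyltransferase that makes diacylglycerol from absorbed monoacylglycerol. It had 100 counts (19.9 CPM, 16.2 to 24.2) in the fasted library, against 70 counts (10.02 CPM, 7.81 to 12.7) in the fed library, a log2 ratio of 1.01 (0.56 to 1.47). The final step, from diacylglycerol to triglyceride, is catalysed by the unrelated enzymes of Dgat1 and Dgat2. Dgat1 had 1006 counts (200.4 CPM, 188 to 213) in the fasted library, against 1056 counts (151 CPM, 142 to 161) in the fed library, a log2 ratio of 0.43 (0.30 to 0.55). Dgat2 had 111 counts (22.1 CPM, 18.2 to 26.6) in the fasted library, against 94 counts (13.5 CPM, 10.9 to 16.5) in the fed library, a log2 ratio of 0.74 (0.33 to 1.15). Its interval reaches past 2-fold, so that the depth does not place Dgat2 on either side of the threshold. The same holds for Mogat2, Mttp, Apoc2 and Apoc3, called higher, whose intervals also span 2-fold.

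Of the assembly and export genes, Mttp was higher and Sar1b was not. Mttp encodes the lipid-transferring subunit of the microsomal triglyceride transfer protein. It had 1656 counts (330 CPM, 314 to 346) in the fasted library, against 1130 counts (162 CPM, 152 to 171) in the fed library. The log2 ratio was 1.05 (0.94 to 1.16). Mttp shares 457 of its 6206 exon bases with Trmt10a on the opposite strand, and reads there cannot be told apart where the counting used no strand. Trmt10a had 70 counts in the fasted and 89 in the fed library, few beside those of Mttp. How reads in the shared bases were assigned was not analysed here, so these counts do not show the effect of the overlap. Sar1b encodes the COPII GTPase whose loss in humans causes chylomicron retention disease. It had 465 counts (92.6 CPM, 84.4 to 101) in the fasted library, against 536 counts (76.7 CPM, 70.4 to 83.5) in the fed library, a log2 ratio of 0.29 (0.11 to 0.47).

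**Figure D2:**
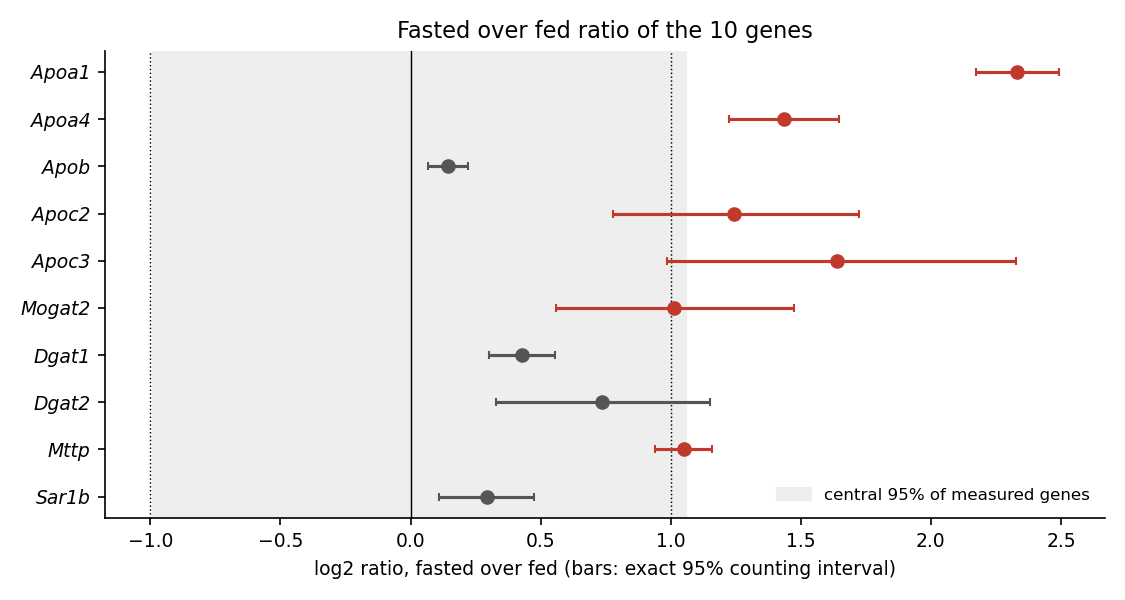
Log2 ratio of fasted over fed for each of the 10 genes, with exact 95% counting intervals as bars; red marks genes called higher, dotted lines mark 2-fold and the grey band spans the central 95% of measured genes. Apoa1 (2.33), Apoc3 (1.64), Apoa4 (1.44) and Apoc2 (1.24) lie to the right of the band, while Apob (0.14) and Sar1b (0.29) lie near 0.

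The ratio of a pair of genes within a library does not depend on how libraries are scaled. It can still carry a trend of the ratios with exon length, for which the pairs were not corrected. Under exon length correction the single log2 ratio of Apob rose from 0.14 to 0.30. Those of Apoa1, Dgat1 and Sar1b fell from 2.33 to 2.16, from 0.43 to 0.39 and from 0.29 to 0.11, the last to below Apob. The pair values and intervals that follow leave this out. Reads of Apoa1 amounted to 0.573 times those of Apob in the fasted library and 0.126 times in the fed library, a log2 difference of 2.19 (2.01 to 2.37). The same difference against Apob was 1.29 (1.07 to 1.52) for Apoa4. Of the 9 pairs that include Apob, 8 had an interval of the difference that excluded 0, against 41.0% of the pairs of Apob with each of the other 12025 measured genes. Whether an interval excludes 0 depends on read depth as well as on the size of the difference. The exception was Sar1b, with -0.15 (-0.35 to 0.049) for Apob per Sar1b. Mttp and Apob, whose products act together in loading, differed in this way too, with 1.54 Apob reads per Mttp read in the fasted library and 2.89 in the fed library, a log2 difference of -0.91 (-1.04 to -0.77). Mogat2 and Dgat2, the neighbouring and related genes, had 0.901 and 0.745 Mogat2 reads per Dgat2 read in the fasted and fed libraries, a log2 difference of 0.27 (-0.35 to 0.90).

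Because Apob is a long transcript, reads overstate its level next to the smaller apolipoproteins. Of the reads of the 5 apolipoprotein genes, Apob took 54.0% (exact 95% interval 52.6 to 55.5) in the fasted library and 80.6% (79.4 to 81.8) in the fed library. Apoa1 took 30.9% (29.6 to 32.3) in the fasted and 10.1% (9.22 to 11.1) in the fed library. Per kilobase of exon, Apoa1 made up 63.7% of the summed level of the 5 genes in the fasted library and 40.1% in the fed library, and Apob 9.87% and 28.3%. On the same scale per kilobase, Apoc2 made up 6.89% in the fasted and 9.23% in the fed library, and Apoc3 3.40% and 3.46%.

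Ordered by level per kilobase of exon and 1000000 counts (RPKM), the fasted library was led by Apoa1 (236), ahead of Sar1b (73.8), Dgat1 (65.6), Apoa4 (59.5) and Mttp (53.2). Apob (36.5), Apoc2 (25.5), Apoc3 (12.6), Mogat2 (10.9) and Dgat2 (7.17) followed. In the fed library Sar1b led (61.1), followed by Dgat1 (49.5), Apoa1 (47.5), Apob (33.5), Mttp (26.1) and Apoa4 (22.3). Apoc2 (10.9), Mogat2 (5.46), Dgat2 (4.36) and Apoc3 (4.09) were lowest there. Counting intervals overlapped in the fasted library between Sar1b and Dgat1, Dgat1 and Apoa4, Apoa4 and Mttp, and Apoc3 and Mogat2. In the fed library they overlapped between Dgat1 and Apoa1, between Mttp and Apoa4, and among all of Mogat2, Dgat2 and Apoc3. Apoa1 stood in place 1 in the fasted and place 3 in the fed library, and Apob in place 6 in the fasted and place 4 in the fed library.

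Of 8 other apolipoprotein genes 1 passed the low-count filter, and the others had at most 6 counts in either library. The measured gene was Apoe, which encodes a ligand for the uptake of remnants. It had 96 counts (19.1 CPM) in the fasted library, against 73 counts (10.5 CPM) in the fed library, a log2 ratio of 0.89 (0.44 to 1.35). Apoa5 and Apod had 0 counts in both libraries, and with a limit of 3 counts this allows up to 0.598 CPM in the fasted and 0.429 CPM in the fed library.

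The glycerol phosphate route, which makes triglyceride without monoacylglycerol, had 11 measured genes, of which 1 was higher and 0 were lower. Their median log2 ratio was 0.13. The higher gene was Agpat4, of the acylglycerolphosphate acyltransferase family, with 147 counts in the fasted and 97 in the fed library, a log2 ratio of 1.10 (0.72 to 1.48). It lost this call after correction for exon length. Lpin1, a phosphatidate phosphatase gene, had 37 counts in the fasted and 104 in the fed library, a log2 ratio of -0.99 (-1.58 to -0.44), and passed 2-fold when libraries were scaled to total counts.

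The COPII coat and the carriers built with it had 18 measured genes, of which 0 reached 2-fold. That is near the shares over all measured genes (2.51% higher, 1.91% lower). The median log2 ratio of the 18 genes was 0.034. The largest ratios were those of the coat gene Sec24d, at 0.64 (0.23 to 1.06), and of Tfg, at 0.33 (0.19 to 0.48). Sar1a, the close relative of Sar1b, had 590 counts in the fasted and 716 in the fed library, a log2 ratio of 0.22 (0.059 to 0.38). The ratios of both SAR1 genes were within 2-fold. Among 12 measured partners of particle assembly 0 were higher and 1 was lower, and the median log2 ratio was 0.26. P4hb, whose product is the other subunit of the microsomal triglyceride transfer protein, had 4163 counts in the fasted and 4525 in the fed library, a log2 ratio of 0.38 (0.32 to 0.44), against 1.05 for Mttp. Pla2g12b, which is needed for lipoprotein assembly in mice, had a log2 ratio of 0.97 (0.51 to 1.43).

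In the intestine, Apob messenger RNA is edited to encode a shortened protein. Of 4 measured genes of this editing 0 were higher and 1 was lower, with a median log2 ratio of -0.16. The deaminase gene Apobec1 was the lower one, with 22 counts (4.38 CPM) in the fasted library, against 64 counts (9.16 CPM) in the fed library, a log2 ratio of -1.04 (-1.81 to -0.32). The cofactor gene Rbm47 had 0.32 (0.21 to 0.44). Gene counts do not show what share of Apob messages was edited.

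Among transcription factor genes linked to apolipoprotein genes 2 of 16 were higher and 0 lower, with a median log2 ratio of 0.12. Creb3l3, whose product is known in liver and intestine as an activator of apolipoprotein genes, had 827 counts in the fasted and 56 in the fed library, a log2 ratio of 4.38 (3.99 to 4.80). Nr0b2, a nuclear receptor without a DNA-binding domain, had 33 counts in the fasted and 19 in the fed library, a log2 ratio of 1.29 (0.44 to 2.19). Hnf4a, an abundant regulator of the enterocyte programme, had 5555 counts in the fasted and 9107 in the fed library, a log2 ratio of -0.22 (-0.26 to -0.17). The other HNF4 gene of the list, Hnf4g, had a ratio of the opposite sign. It had 687 counts in the fasted and 538 in the fed library, a log2 ratio of 0.85 (0.69 to 1.02).

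**Figure D3:**
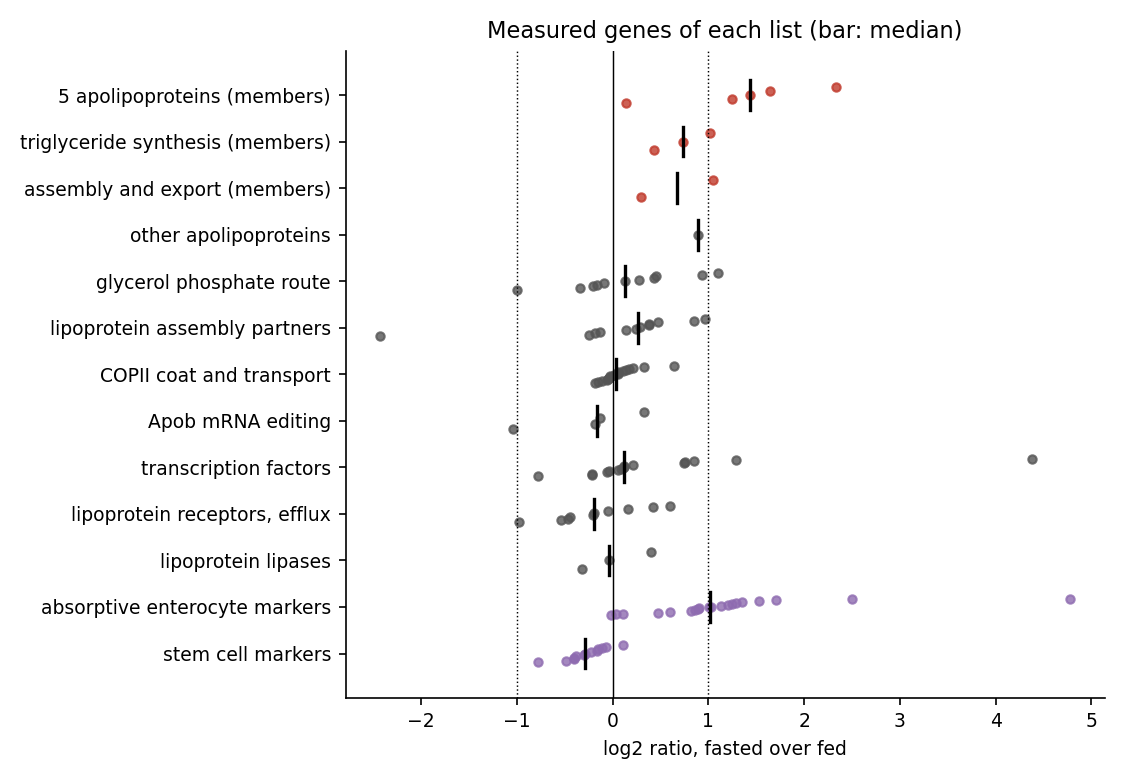
Log2 ratio of fasted over fed for each measured gene of the member groups (red), the other lists of the pathway (grey) and the enterocyte and stem cell markers (purple), with black bars at the medians and dotted lines at 2-fold. The 5 apolipoproteins have a median of 1.44 and the enterocyte markers 1.02, while the COPII genes gather around 0.034.

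Several of the genes lie next to each other in the genome. Apoa1, Apoc3 and Apoa4 stand in a row on chromosome 9 with Apoa5, Apoc2 stands near Apoe on chromosome 7, and Dgat2 and Mogat2 are neighbours elsewhere on chromosome 7. Of the 18 protein-coding genes that flank these groups, 3 on each side, 14 were measured and 0 of these were higher or lower. Over all measured genes 2.51% were higher and 1.91% lower, so 0 of 14 is near those shares. The log2 ratios of the 14 flanking genes ran from -0.35 for Zpr1 to 0.30 for Sidt2, with a median of -0.069. Apoa1 and Sik3, adjacent in the annotation, had 2.33 (2.17 to 2.49) and -0.11 (-0.30 to 0.073). Within the chromosome 9 group the measured genes were higher while Apoa5 had 0 counts in both libraries. Between Apoc2 and Apoe, Apoc4 had 1 count in the fasted library and 0 in the fed library, and Apoc1 had 1 count in each.

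**Figure D4:**
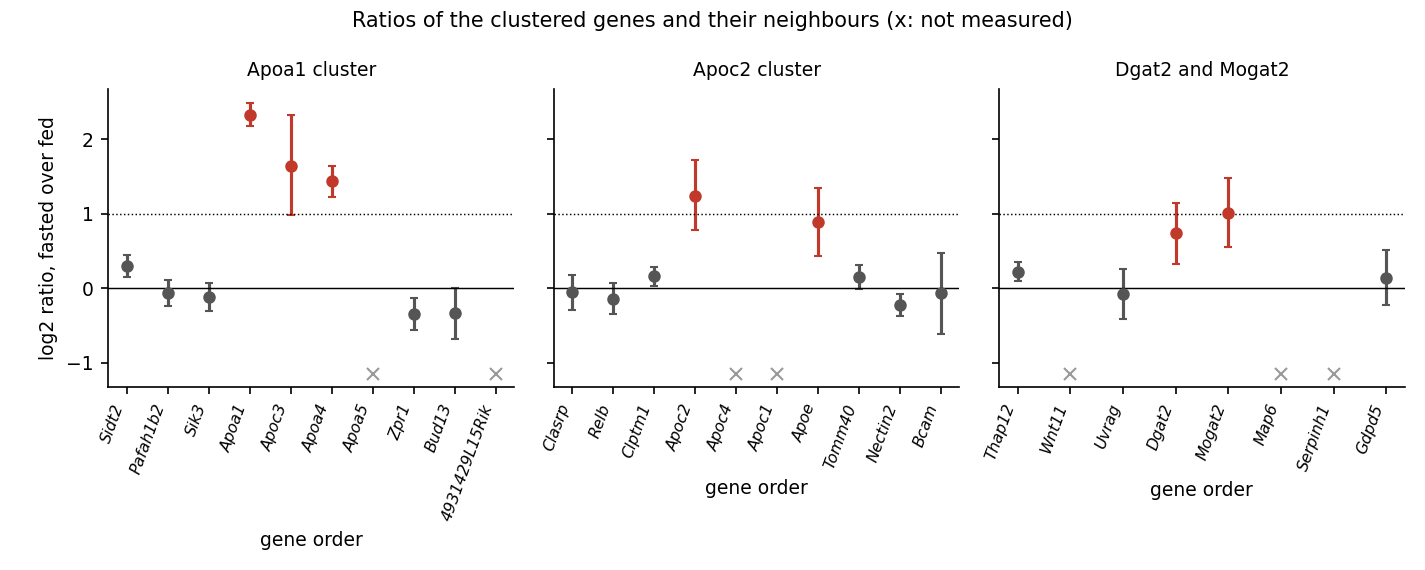
Log2 ratio of fasted over fed, with exact 95% counting intervals, for the clustered genes (red) and the 3 protein-coding genes on either side (grey), in their order along the chromosome; a cross marks a gene that was not measured. The flanking genes lie between -0.35 and 0.30, below the clustered genes that were measured.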

How the data were processed

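Per the labels' protocols, cells were sorted into Trizol and 1 ug of RNA per library was prepared with a TruSeq RNA kit from Illumina. The authors deposited whole-number read counts per Ensembl gene. FastQC, STAR, HTSeq and DESeq, and the builds GRCm38 and mm10, are named per the submitters' processing notes; the annotation and strand setting are not stated there. A second deposited table holds a normalised signal equal to the counts divided by 1 factor per library: dividing the counts by 0.842 (fasted) and 1.19 (fed) gave 100% of its values within 0.006, so whole reads were recovered. These factors are the same as the median-of-ratios factors used here, so ratios from that table equal the main ones by construction, up to rounding. Symbols, exon lengths and coordinates came from GENCODE M21 (45143 of 45706 IDs matched).

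Counts were scaled by median-of-ratios factors in Python 3.11.15. Intervals of ratios are exact Clopper-Pearson intervals of the fasted share of a gene's reads (scipy 1.17.1), those of CPM are exact Poisson intervals, and those of pair differences are exact conditional intervals. All cover counting error only. A floor of 3 counts was used only to state what level a count of 0 allows. Counts of 0 were not replaced in ratios or levels. The call rule was tested on simulated counts that held counting error only, with no changed gene set at 2-fold. That simulation cannot show how the rule fares with variation between mice or libraries. A count test across replicates could not be fitted with 1 library per group. Alternatives were edgeR 4.0.16 TMM and upper-quartile factors, total counts, other filters, other thresholds and a running median over exon length.

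The members, lists and tests were chosen with earlier results of these data known. Named are all 10 members, list genes past the threshold, the 2 largest ratios of each list, list extremes among markers, and genomic neighbours; some genes that this takes are not reported here. Genes named beyond this (Sar1a, P4hb, Hnf4a, Hnf4g, Lgr5, Alb, Ttr, Cps1, Apod, and genes overlapping a member) were chosen for their roles after their values were seen.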

Additional observations from a re-analysis of the deposited data

How the results depend on the processing

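The 6 members that were higher became 2 at 3-fold, Apoa1 and Apoc3, and 2, Apoa1 and Apoa4, where the bound nearest to equality had to pass 2-fold. At 1.5-fold Dgat2 joined the 6, while total counts or exon length correction removed Mogat2. No member was lower under any alternative, and their median log2 ratio ran from 0.97 to 1.05. Over all measured genes, the 302 higher and 230 lower numbered 176 and 111 among genes of 5 CPM or more. Thresholds of 1.5-fold and 3-fold gave 614 and 607, and 124 and 88. The 2-fold interval bound gave 103 and 36. Under TMM factors, total counts, upper-quartile factors and exon length correction, the log2 ratio of Apoa1 ran from 2.16 to 2.36, that of Apob from 0.12 to 0.30 and that of Mttp from 1.03 to 1.10. Filters and thresholds cannot move a single gene's ratio, and the deposited values carry the main factors. Under the 4 settings that can, 4 of 92 log2 ratios of members and list medians left their counting bounds. All were under exon length correction: Apoa1 at 2.16, Apob at 0.30, the stem cell markers at -0.20 and the Paneth cell markers at -0.57. TMM factors, total counts and upper-quartile factors each shift every ratio by the same small amount, so they could hardly move one past its bounds. Under them the median of all measured genes was -0.016, -0.039 and 0.0061, against -0.018. For a list median, the bounds are the medians of the bounds of its genes. No paired analysis was possible because each group had 1 library, and no library could be left out. Genes such as Apoc3, with 64 and 29 counts in the fasted and fed libraries, are limited by depth.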

Other observations

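Genes that act on lipoproteins after their release, or take them up, were within 2-fold where measured. Among 10 measured receptor and cholesterol efflux genes 0 were higher and 0 were lower, near the shares of 2.51% and 1.91% over all measured genes. The log2 ratio was negative for 7 of the 10, with a median of -0.20. Abca1, which passes cholesterol to apolipoprotein A-I at the cell surface, had 57 counts in the fasted and 158 in the fed library, a log2 ratio of -0.97 (-1.44 to -0.53), opposite in sign to that of Apoa1. Scarb1, a receptor of high density lipoprotein, had 100 counts in the fasted and 93 in the fed library, a log2 ratio of 0.60 (0.18 to 1.03). The intervals of Abca1 and Scarb1 reach past 2-fold, so the depth does not place them on either side of the threshold. Without the low-count filter 1 gene of this list was lower.

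Of the lipases of lipoproteins and their helpers 3 were measured and 0 of these were higher or lower. That is near the shares over all measured genes (2.51% higher, 1.91% lower). Lpl, the target of the apolipoproteins of Apoc2 and Apoc3, had 0 counts in the fasted and 2 in the fed library, below the floor of 3 counts. The endothelial lipase gene Lipg had 158 and 279 counts in the fasted and fed libraries, a log2 ratio of -0.32 (-0.61 to -0.036), and Lmf1, a lipase maturation factor gene, had 0.41 (0.12 to 0.69). Lpl was named after its values were seen.

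Other cell types were seen to differing degrees. The 10 Paneth cell markers had a median of -0.38, with 2 higher and 1 lower. Enteroendocrine markers had 0 of 5 and tuft cell markers 0 of 3 past the threshold, near the shares over all measured genes (2.51% higher, 1.91% lower). Of 8 immune markers 2 were measured and 1 of these was lower, and of 8 stromal and endothelial markers 0 were measured.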
